A study of Mus musculus with 6 samples.

Results

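The centromere and kinetochore genes are the genes whose proteins build the attachment site between a chromosome and the mitotic spindle. They were taken from a list of 42 gene symbols, each read through a probe set annotated to exactly 1 symbol, with the probe set of highest mean over the 6 arrays standing for the gene. Of the 42 genes, 41 were tested, out of 13222 genes tested in all. The remaining gene, Hjurp, the chaperone that deposits the centromeric histone, had probe sets shared with other symbols only and was not analysed here. All 41 genes passed the filter on low values in all 6 arrays, so none was kept through its level in 1 group.

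The arrays, of an Affymetrix mouse design, measured RNA of tumour epithelial cells from chemically induced benign skin papillomas of mice. The Sox2cKO group was 3 arrays of mice of the genotype K14CREER:SOX2fl/fl, given tamoxifen over 1 week, in which Cre made under the keratin 14 promoter of basal keratinocytes deletes floxed Sox2. The CTRL group was 3 arrays of control mice that also received tamoxifen for 1 week. The labels do not give the Cre and floxed alleles of the control mice, the ages, or whether tumours were pooled. Cells of both groups were sorted as positive for Epcam and alpha6 integrin and negative for CD45, CD31 and CD140a, which mark leukocytes, endothelium and fibroblasts. The series describes 3 biological experiments without saying what a replicate number stands for, so p-values measure the spread between these arrays. Values are log2 intensities, differences are Sox2cKO minus CTRL on that scale, and values per array are given in the order of replicates 1, 2 and 3.

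Centromeres are set apart from the rest of the chromosome by the histone variant CENP-A. A constitutive network of inner kinetochore proteins sits on this chromatin, and the MIS12 and NDC80 complexes link it to microtubules. The spindle checkpoint delays chromosome separation until kinetochores are attached, while the passenger complex corrects wrong attachments and shugoshins protect cohesion at the centromere. Many of these genes are transcribed mainly in G2 and mitosis, so their RNA in a tissue depends on how many of its cells are dividing. In stratified epidermis the dividing cells lie mostly in the basal layer.

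Several facts about the arrays touch what follows. Sox2, the targeted gene, read 4.07, 4.63 and 3.23 in the Sox2cKO arrays, against 7.19, 8.31 and 8.18 in the CTRL arrays, a difference of -3.92 ± 0.41 (SE) with an adjusted p of 0.316 in limma. Its groups stood apart, and where its probes lie relative to the deleted part was not examined. Xist, the RNA of the inactive X chromosome in females, was high in 0 of 3 Sox2cKO arrays and in 2 of 3 CTRL arrays, replicates 2 and 3, where the Y-linked gene Eif2s3y read 3.72 and 3.45, against 9.52 to 9.54 in the Sox2cKO arrays and 9.67 in CTRL replicate 1. The log2 of the summed level of 9 fibroblast markers was 12.99, 13.21 and 14.10 in the Sox2cKO arrays, against 12.74, 12.56 and 11.79 in the CTRL arrays, and it was highest in Sox2cKO replicate 3 and lowest in CTRL replicate 3. Array medians lay between 5.42 and 5.46.

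Most centromere and kinetochore genes had a lower mean in Sox2cKO cells, by small amounts that did not pass the test. The mean was lower for 37 of the 41 genes, where 49.4% of all genes tested were lower. The median difference was -0.18 over the 41 genes and 0.0 over all genes, and single genes ran from -0.75 for Itgb3bp to 0.21 for Cenpb. No gene among the 41 passed an adjusted p of 0.05 in limma, in a comparison that called 0% of all genes, and the lowest adjusted p among them was 0.999. At an unadjusted p under 0.05, 4 of the 41 genes were lower (Itgb3bp, Sgol2a, Oip5 and Cenph) and 0 were higher, where 1.29% of all genes were lower and 354 genes passed in either direction. That count of 4 was 13 without Sox2cKO replicate 3, 2 without Sox2cKO replicate 1 and 2 without CTRL replicate 2. The 354 of all genes became 525, 382 and 200 in these fits. The sex-linked pattern as a covariate leaves CTRL replicate 1 alone for the comparison. With it Itgb3bp stood at -0.78, Cenph at -0.40, Sgol2a at -0.31 and Oip5 at -0.24. The 3 Sox2cKO values lay below all 3 CTRL values for 8 of the 41 genes, where 3.12% of all genes did so, and above them for 0 of the 41, where 2.73% did. The mean was lower by more than 1.2-fold for 18 genes, and the largest rise, of Cenpb, was 1.16-fold. The share of all genes past 1.2-fold was not counted, so the 18 cannot be set against it. In these bulk samples, fewer dividing cells and less RNA of these genes per cell cannot be told apart.

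**Figure D1:**
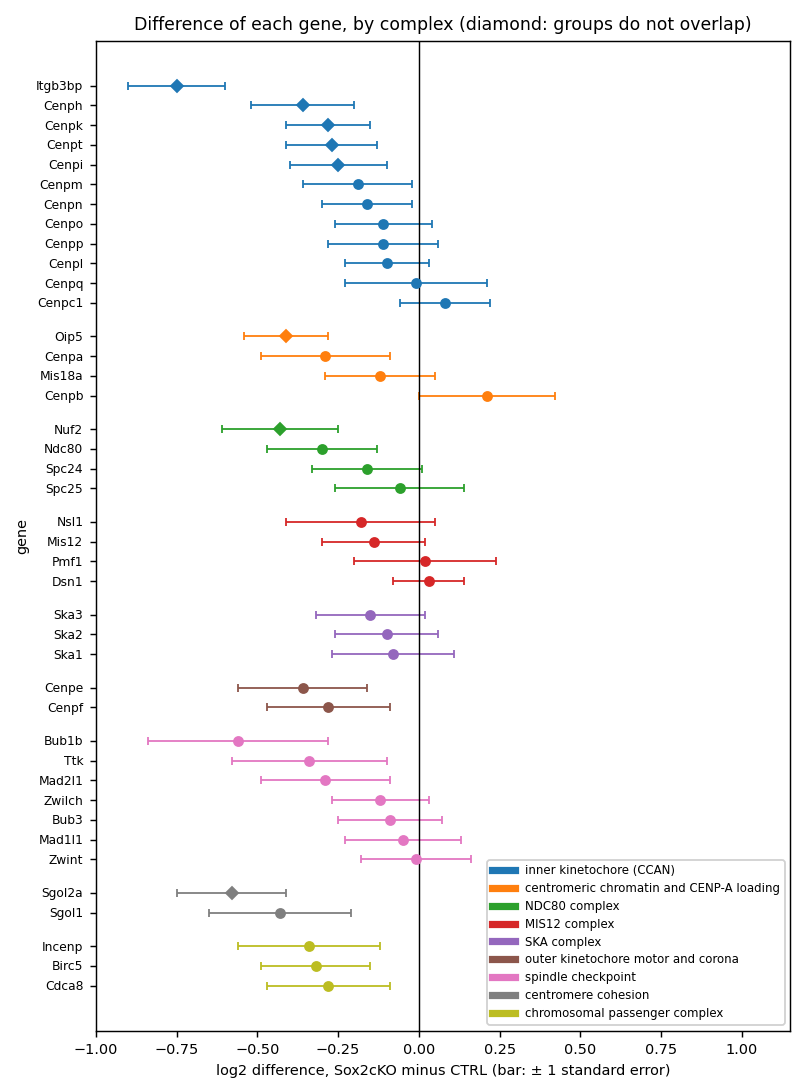
Log2 difference, Sox2cKO minus CTRL, of each of the 41 genes (x axis), grouped and coloured by complex, with bars of 1 standard error and diamonds for the 8 genes whose groups do not overlap. The points lie left of 0 for 37 genes, and Itgb3bp lies farthest left at -0.75.

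The inner kinetochore network held 5 of the 8 genes whose groups did not overlap. Of its 12 genes, 11 were lower, with a median difference of -0.17, and Cenpc1, which bridges CENP-A chromatin and the outer kinetochore, was the exception at 0.08 ± 0.14 (SE). Itgb3bp encodes CENP-R, a subunit first described as a partner of integrin beta3. It read 6.90, 6.68 and 7.12 in the Sox2cKO arrays, against 7.68, 7.79 and 7.49 in the CTRL arrays. Every Sox2cKO array lay below every CTRL array, with a gap of 0.37 between the groups, and the mean was 1.68-fold lower, a difference of -0.75 ± 0.15 (SE) at an unadjusted p of 0.00165 and an adjusted p of 0.999 in limma. Cenph, a subunit of the group around CENP-H and CENP-I, read 7.34, 7.02 and 7.55 in the Sox2cKO arrays, against 7.70, 7.69 and 7.61 in the CTRL arrays. The 3 CTRL arrays were close to each other, and Sox2cKO replicate 2 was the low one, with a difference of -0.36 ± 0.16 (SE).

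Cenpk, of the same subcomplex, read 7.37, 7.17 and 7.42 in the Sox2cKO arrays, against 7.68, 7.67 and 7.45 in the CTRL arrays. The groups were separated by 0.03 only, between replicate 3 of each, and differed by -0.28 ± 0.13 (SE). Cenpt, whose product binds the NDC80 complex directly, read 8.33, 8.35 and 8.48 in the Sox2cKO arrays, against 8.50, 8.89 and 8.58 in the CTRL arrays. Its highest Sox2cKO array was 0.03 below its lowest CTRL array, and CTRL replicate 2 stood highest, with a difference of -0.27 ± 0.14 (SE). Cenpi, an X-linked gene, read 7.62, 7.17 and 7.59 in the Sox2cKO arrays, against 7.63, 7.80 and 7.69 in the CTRL arrays. The gap was 0.01, and Sox2cKO replicate 2 alone was clearly lower than the rest, for a difference of -0.25 ± 0.15 (SE). The other network genes lay between -0.19 for Cenpm and -0.01 for Cenpq, with Cenpn at -0.16, Cenpo and Cenpp at -0.11 each and Cenpl at -0.10. These 6 genes had overlapping groups.

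Of the genes for CENP-A chromatin, 3 of 4 were lower, with a median difference of -0.20. Oip5, which encodes a MIS18 subunit that primes centromeres for new CENP-A, read 5.37, 5.35 and 5.53 in the Sox2cKO arrays, against 5.65, 5.99 and 5.83 in the CTRL arrays. Its groups were 0.12 apart, and the mean was 1.33-fold lower, a difference of -0.41 ± 0.13 (SE). Cenpa, the gene of CENP-A itself, read 9.92, 9.83 and 10.20 in the Sox2cKO arrays, against 10.05, 10.68 and 10.08 in the CTRL arrays. CTRL replicate 2 was the high array while the other 5 lay close together and overlapped, and the difference was -0.29 ± 0.20 (SE). Mis18a, the partner of Oip5, differed by -0.12, and Cenpb, which binds a DNA box in centromeric repeats, by 0.21 ± 0.21 (SE).

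The NDC80 complex is the rod that holds the microtubule end, and all 4 of its genes were lower, with a median difference of -0.23. Nuf2 read 7.56, 7.66 and 7.61 in the Sox2cKO arrays, against 8.04, 8.39 and 7.69 in the CTRL arrays. Its Sox2cKO arrays were nearly equal (7.61 ± 0.05, SD, n = 3) and its CTRL arrays spread widely (8.04 ± 0.35, SD, n = 3), with a gap of 0.03 and a difference of -0.43 ± 0.18 (SE). Ndc80 read 6.89, 7.00 and 7.45 in the Sox2cKO arrays, against 7.29, 7.54 and 7.40 in the CTRL arrays. Here Sox2cKO replicate 3 lay among the CTRL arrays, and the difference was -0.30 ± 0.17 (SE). Spc24 and Spc25, the pair at the chromatin end of the rod, differed by -0.16 and -0.06.

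**Figure D2:**
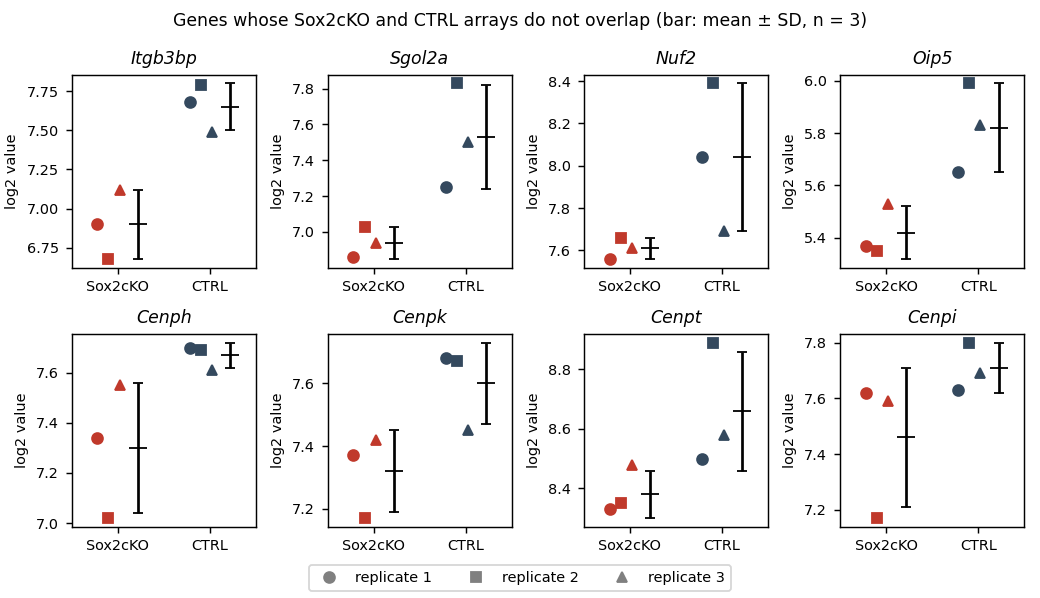
Log2 values of the 8 genes whose 3 Sox2cKO arrays all lie below the 3 CTRL arrays (y axis), 1 panel per gene, with Sox2cKO left of CTRL, marker shapes for the replicate number and bars for mean ± SD (n = 3). The gap between the groups is 0.37 for Itgb3bp, 0.22 for Sgol2a and 0.12 for Oip5, and 0.07 or less for the other panels.

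The MIS12 complex, which joins the inner kinetochore to NDC80, was split: 2 of 4 genes were lower and the median difference was -0.06. Mis12 read 6.63, 7.12 and 6.85 in the Sox2cKO arrays, against 6.86, 7.09 and 7.08 in the CTRL arrays. Nsl1 read 6.31, 5.69 and 6.27 in the Sox2cKO arrays, against 5.95, 6.25 and 6.61 in the CTRL arrays. Both had overlapping groups, at -0.14 ± 0.16 and -0.18 ± 0.23 (SE), and Sox2cKO replicate 2 was high for Mis12 but lowest for Nsl1. Dsn1 and Pmf1 differed by 0.03 and 0.02. The SKA complex keeps kinetochores on shortening microtubules, and its 3 genes had a median difference of -0.10. Ska3 read 6.49, 6.38 and 6.98 in the Sox2cKO arrays, against 6.76, 6.81 and 6.71 in the CTRL arrays. Ska2 read 7.14, 7.28 and 7.55 in the Sox2cKO arrays, against 7.23, 7.55 and 7.50 in the CTRL arrays. For both genes Sox2cKO replicate 3 reached or passed the CTRL arrays, with differences of -0.15 ± 0.17 and -0.10 ± 0.16 (SE), and Ska1 differed by -0.08.

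Cenpe, a kinesin motor that carries chromosomes to the spindle equator, read 8.54, 8.19 and 8.89 in the Sox2cKO arrays, against 8.71, 9.08 and 8.90 in the CTRL arrays. Cenpf, a large coiled-coil protein of the outer corona, read 8.38, 8.14 and 8.71 in the Sox2cKO arrays, against 8.51, 8.93 and 8.62 in the CTRL arrays. Both were lowest in Sox2cKO replicate 2 and highest in CTRL replicate 2, and the groups overlapped through Sox2cKO replicate 3. Their differences were -0.36 ± 0.20 and -0.28 ± 0.19 (SE).

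All 7 spindle checkpoint genes had a lower mean, with a median difference of -0.12 and overlapping groups throughout. Bub1b, which encodes the checkpoint protein BUBR1, read 8.58, 8.20 and 8.71 in the Sox2cKO arrays, against 8.48, 9.54 and 9.14 in the CTRL arrays. CTRL replicate 1 lay among the Sox2cKO arrays and the other CTRL arrays well above them, so a difference of -0.56 came with the largest SE of the 41 genes, 0.28. Ttk, the kinase MPS1 that starts checkpoint signalling, read 8.22, 8.13 and 9.01 in the Sox2cKO arrays, against 8.73, 8.76 and 8.90 in the CTRL arrays. Its Sox2cKO replicate 3 was the highest of the 6 arrays while the other Sox2cKO arrays were the lowest, and the difference was -0.34 ± 0.24 (SE). Mad2l1, whose product inhibits the anaphase-promoting complex, differed by -0.29 ± 0.20 (SE). The remaining checkpoint genes were nearer to 0, at -0.12 for Zwilch, -0.09 for Bub3, -0.05 for Mad1l1 and -0.01 for Zwint.

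The shugoshin genes had the lowest median of the 9 functional groups, -0.51 over 2 genes. Sgol2a, named Sgo2a in RefSeq, read 6.86, 7.03 and 6.94 in the Sox2cKO arrays, against 7.25, 7.83 and 7.50 in the CTRL arrays. Its groups were 0.22 apart and its mean 1.50-fold lower, a difference of -0.58 ± 0.17 (SE) at an unadjusted p of 0.00954 and an adjusted p of 0.999 in limma. Sgol1, now Sgo1, which guards centromeric cohesion in mitosis, read 7.38, 7.66 and 7.85 in the Sox2cKO arrays, against 7.76, 8.49 and 7.94 in the CTRL arrays. Its groups overlapped through Sox2cKO replicate 3 and CTRL replicate 1, and the difference was -0.43 ± 0.22 (SE). The 3 passenger complex genes were all lower, with a median difference of -0.32 and overlapping groups. Birc5, the subunit survivin, read 9.90, 9.85 and 10.23 in the Sox2cKO arrays, against 10.14, 10.56 and 10.25 in the CTRL arrays. Cdca8, the subunit borealin, read 10.14, 9.93 and 10.54 in the Sox2cKO arrays, against 10.29, 10.66 and 10.51 in the CTRL arrays. In both, Sox2cKO replicate 3 lay among the CTRL arrays, with differences of -0.32 ± 0.17 and -0.28 ± 0.19 (SE), and the scaffold gene Incenp differed by -0.34 ± 0.22 (SE).

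**Figure D3:**
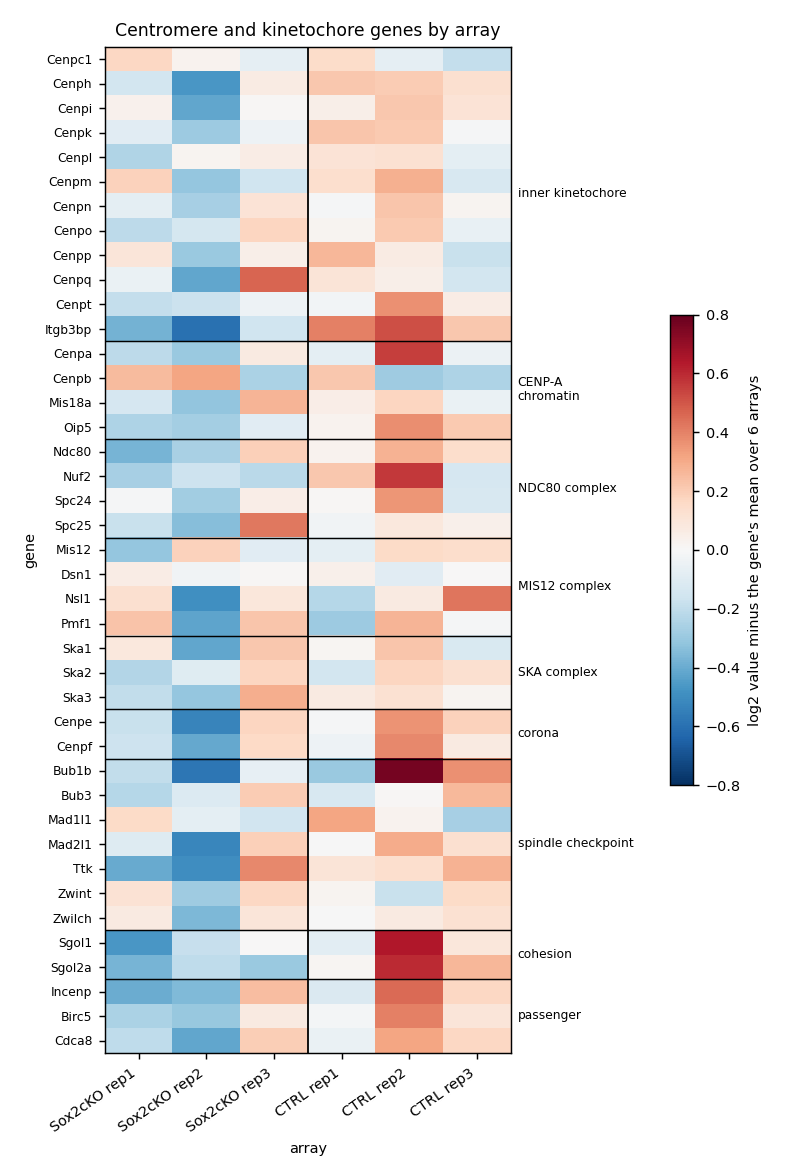
Heat map of the 41 genes (rows, by complex) in the 6 arrays (columns, Sox2cKO left of CTRL), coloured by the log2 value minus the gene's mean over the 6 arrays. Sox2cKO replicate 2 is the lowest array for 26 genes and CTRL replicate 2 the highest for 23.

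The arrays numbered 2 carried much of the difference. Sox2cKO replicate 2 was the lowest of the 6 arrays for 26 of the 41 genes, where 18% of all genes were lowest there. CTRL replicate 2 was the highest for 23 of the 41, where 23.5% of all genes were highest there. With each gene centred on its mean over the 6 arrays, the median of the 41 genes was -0.17, -0.30 and 0.08 in the Sox2cKO arrays, against 0.02, 0.22 and 0.08 in the CTRL arrays. Sox2cKO replicate 3 was thus level with CTRL replicate 3. Deviations of same-numbered arrays from their group means correlated above 0 across all genes, which cannot establish that they are pairs. The difference was also read within these pairs. It was below 0 for 31 of 41 genes in pair 1, where 55.5% of all genes were, with a median of -0.17. In pair 2 it was below 0 for 37 of 41, where 47.7% of all genes were, with a median of -0.55. In pair 3 it was below 0 for 18 of 41, where 48.6% of all genes were, with a median of 0.03.

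Only pair 1 set arrays of the same sex-linked pattern against each other, with Xist at 7.54 in Sox2cKO and 7.30 in CTRL. In pairs 2 and 3 Xist read 6.82 and 6.08 in Sox2cKO, against 12.03 and 11.85 in CTRL. The genes lower in all 3 pairs numbered 12 of 41, where 12.7% of all genes were lower in all 3. They were Itgb3bp, Cenph, Cenpi, Cenpk and Cenpt of the inner network, Oip5, Nuf2, Cenpe, Bub3, Sgol1, Sgol2a and Birc5. Itgb3bp differed by -0.78, -1.11 and -0.37 in pairs 1, 2 and 3. Sgol2a differed by -0.39, -0.80 and -0.56. Oip5 differed by -0.28, -0.64 and -0.30. In these 3 genes the second pair gave the largest difference. Where the groups do not overlap, every pairing gives differences below 0. The shared direction was thus fixed for the 8 such genes, all among the 12. Of the 12, only Cenpe, Bub3, Sgol1 and Birc5 had overlapping groups. Cenpc1 and Dsn1 were higher in all 3 pairs by small amounts, 0.01, 0.11 and 0.11 for Cenpc1 and 0.02, 0.06 and 0.01 for Dsn1. The share of all genes higher in all 3 pairs was not counted.

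**Figure D4:**
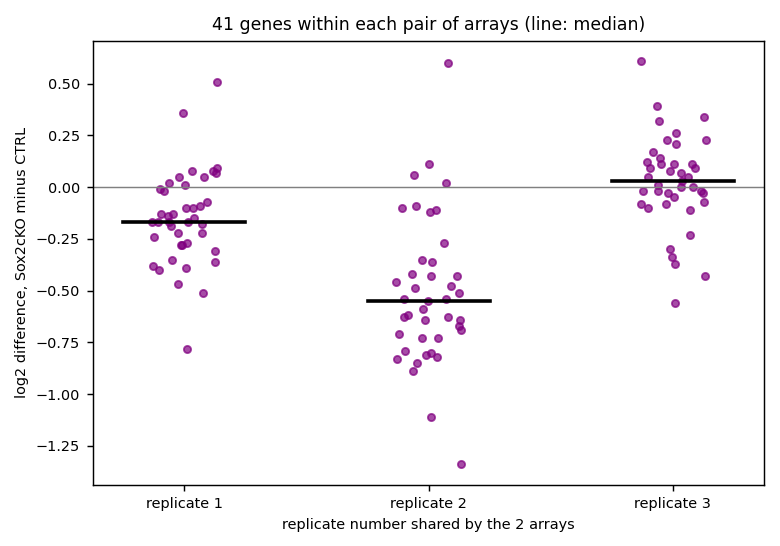
Log2 difference, Sox2cKO minus CTRL, of the 41 genes within each pair of arrays that share a replicate number (x axis), 1 point per gene and a line at the median. The medians are -0.17, -0.55 and 0.03 in pairs 1, 2 and 3, so the third median lies near 0. Xist is high in the CTRL arrays of pairs 2 and 3 only.

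Without Sox2cKO replicate 2, 29 of 41 genes were lower, where 52.7% of all genes were, and the median difference was -0.10. Without both arrays numbered 2, a choice made after seeing the data, 25 of 41 were lower, where 51.8% of all genes were, and the median was -0.02. The groups then stood apart, in either direction, for 11 of the 41 genes and for 28.2% of all genes. Leaving arrays out cannot make separated groups overlap, so such counts cannot fall. Itgb3bp kept a difference of -0.57 and Sgol2a one of -0.47 without them, while Oip5 and Nuf2 stood at -0.29 and -0.28 and Cenpa at -0.008. With the sex-linked pattern as a covariate, which sets the Sox2cKO arrays against CTRL replicate 1 alone, 34 of 41 were lower, where 52.7% of all genes were, with a median of -0.11. Under that covariate Itgb3bp was at -0.78, Nuf2 at -0.42, Sgol2a at -0.31 and Oip5 at -0.24, and Bub1b turned to 0.011.

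Other probe sets of the same genes gave a mixed picture. Of the 41 genes, 16 had further tested probe sets, 25 in all, and 18 of these had the same sign as the one reported. The second probe set of Bub1b gave -0.49 and that of Sgol1 -0.51, close to the reported ones, and that of Cenpa gave -0.56. The further probe sets of Incenp gave -0.37, 0.01 and -0.59, and those of Cenpo gave 0.27 and 0.06, against -0.11 for the reported one. Each of the 8 genes whose groups did not overlap had 1 tested probe set, so they had no second tested reading. Itgb3bp had 5 probe sets of 1 symbol in all and Cenpk 3, and their further ones did not pass the filter and were not examined.

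Promoters of genes expressed in G2 and mitosis often hold the cell cycle homology region, written TTTGAA or TTTAAA, and CCAAT boxes. RefSeq windows on GRCm38.p6, from 250 bases before to 50 after the gene start, were given for 36 of the 41 genes, in 41 windows, and both strands were searched. A homology region in either form lay in 46.3% of these windows, where 27.6% of all 32851 windows held one. A CCAAT box lay in 65.9%, where 37.4% of all windows held one. The E2F forms TTGGCGC and TTCGCGC lay in 4.88% (either form), where 3.89% of all windows held one, and different motifs overlapped at 2 places in the 41 windows. The 8 genes whose groups did not overlap had 11 windows, of which 8 held a CCAAT box and 2 a homology region in either form. Windows were without a match for Itgb3bp and Nuf2, and the Oip5 window held the most sites. These 3 extremes are printed, and the windows of the other 5 genes each held 1 or 2 sites: capitals mark each match, and the Oip5 window holds 1 TTTGAA, 1 TTTAAA and 4 CCAAT boxes on either strand, while the other windows hold 0 matches. They lie on the minus strand at chr4:99829109-99829408 (Itgb3bp), chr1:169531415-169531714 (Nuf2) and chr2:119618456-119618755 (Oip5), and are written 5′ to 3′ in the direction of the gene.
Oip5: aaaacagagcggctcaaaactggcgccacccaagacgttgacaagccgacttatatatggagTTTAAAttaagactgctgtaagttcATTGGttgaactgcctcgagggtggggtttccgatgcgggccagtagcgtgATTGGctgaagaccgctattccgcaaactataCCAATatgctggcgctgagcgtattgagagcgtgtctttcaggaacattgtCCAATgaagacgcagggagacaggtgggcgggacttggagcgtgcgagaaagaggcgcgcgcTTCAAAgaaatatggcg
Itgb3bp: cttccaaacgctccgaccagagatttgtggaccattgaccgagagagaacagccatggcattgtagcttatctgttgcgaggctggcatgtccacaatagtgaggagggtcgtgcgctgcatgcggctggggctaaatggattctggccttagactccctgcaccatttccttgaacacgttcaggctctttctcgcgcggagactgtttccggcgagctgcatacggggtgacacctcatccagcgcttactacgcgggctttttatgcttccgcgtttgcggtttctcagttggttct
Nuf2: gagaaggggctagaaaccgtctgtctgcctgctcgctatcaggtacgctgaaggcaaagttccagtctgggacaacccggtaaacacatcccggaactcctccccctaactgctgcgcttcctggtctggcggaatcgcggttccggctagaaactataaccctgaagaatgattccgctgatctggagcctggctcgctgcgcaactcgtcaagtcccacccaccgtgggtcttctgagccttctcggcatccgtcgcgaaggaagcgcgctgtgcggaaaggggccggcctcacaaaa
A match is a description of these letters, and Itgb3bp and Nuf2 had differences as large as Oip5 or larger.

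Genes outside the list that share its biology were read on the same arrays. Of 25 other kinetochore and centromere genes, 20 were lower, with a median difference of -0.13, and 0 passed the adjusted test. The groups did not overlap for 1 of the 25, lower in Sox2cKO, a share near the 3.12% of all genes. It was Nudc, a dynein cofactor, at -0.23 ± 0.12 (SE). Knl1, the checkpoint scaffold, differed by -0.36 ± 0.17 and Spdl1, a dynein adaptor, by -0.40 ± 0.19 (SE). All 7 proliferation markers tested were lower, with a median difference of -0.25, among them Mki67 at -0.42, Cdk1 at -0.34 and Prc1 at -0.31. The centred median of these markers was -0.14, -0.44 and 0.11 in the Sox2cKO arrays, against -0.02, 0.34 and 0.16 in the CTRL arrays, so its low and high arrays were those of the kinetochore genes. All 11 S-phase genes had a lower mean too, with a median difference of -0.14 and Mcm6 at -0.31, Cdt1 at -0.32 and Mcm7 at -0.25. Their centred median was 0.03, -0.39 and 0.06 in the Sox2cKO arrays, against -0.06, 0.08 and 0.14 in the CTRL arrays. Sox2cKO replicate 2 was the lowest array for 9 of the 11, where 18% of all genes were lowest there. None of these genes passed the adjusted test, in which 0% of all genes were called.

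Cell type markers were read in the same arrays. The 7 basal keratinocyte markers had a median difference of -0.0, with Krt14 at 0.06, Itgb4 at -0.07 and Trp63 at 0.05. All 7 suprabasal markers had a higher mean, by 0.33 at the median, with Lor at 0.33, Ivl at 0.84 and Sbsn at 0.39. Their centred median was 0.51, 0.44 and -0.01 in the Sox2cKO arrays, against 0.40, -0.42 and -0.31 in the CTRL arrays, so Sox2cKO replicate 3, where the kinetochore genes stood highest in its group, had the lowest suprabasal level of its group. All 9 fibroblast markers had a higher mean, by 1.22 at the median, with Lum at 1.61, Dcn at 1.73 and Pdgfra, which encodes the CD140a of the sort, at 1.02. Their centred median was -0.27, 0.41 and 1.57 in the Sox2cKO arrays, against -0.17, -0.23 and -1.51 in the CTRL arrays. The part of these markers in the kinetochore values was not tested.

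**Figure D5:**
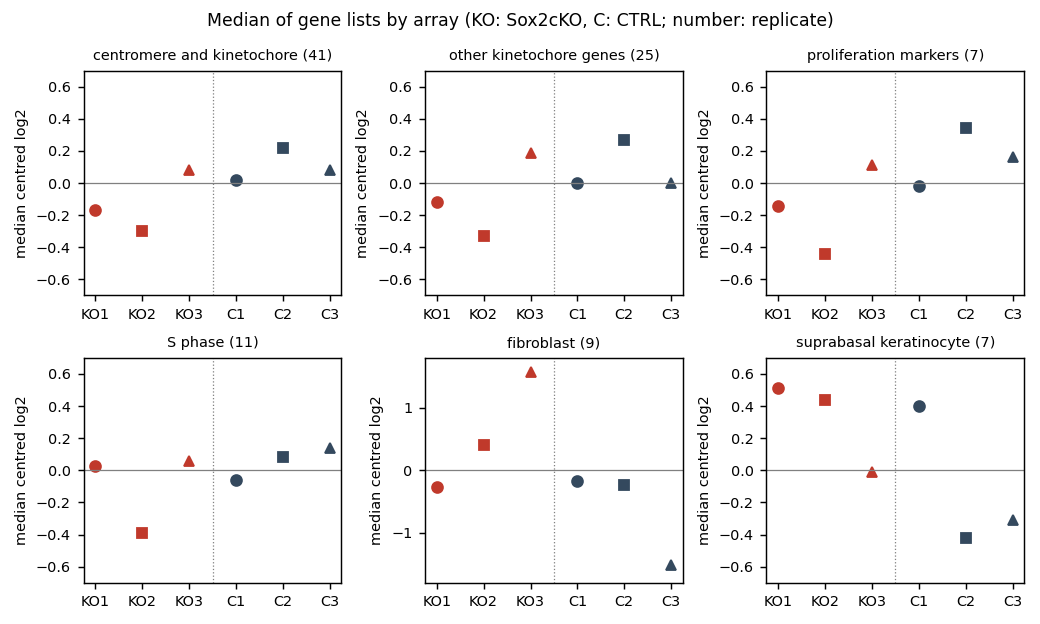
Median, over the genes of a list, of the log2 value minus the gene's mean over the 6 arrays (y axis, wider for fibroblast markers), in each array, with Sox2cKO (KO) left of CTRL (C) and marker shapes for the replicate number. Proliferation markers run from -0.44 in Sox2cKO replicate 2 to 0.34 in CTRL replicate 2, the arrays where the centromere and kinetochore genes have their lowest (-0.30) and highest (0.22) medians.

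The 7 leukocyte markers had a median difference of 0.10, with Cd68 and Lyz2 at 0.43 each and Cd74 at -1.09, its groups apart. Of 7 endothelial markers, 5 were below the filter and the others, Egfl7 and Kdr, differed by 0.04 and 0.03. The 5 melanocyte markers tested had a median of 0.12, with Mitf at 0.46, Mlana at 0.20 and Pmel at 0.12. The 5 sebocyte markers tested were all lower, with a median of -0.62 and Elovl3 at -1.65, Scd1 at -0.62 and Far2 at -1.43. Their centred median was -0.38, 0.20 and -0.79 in the Sox2cKO arrays, against -0.12, 0.87 and 0.02 in the CTRL arrays, and all 5 were highest in CTRL replicate 2, where the kinetochore genes also had their highest median. The part of these markers in the kinetochore values was not tested either. Epcam, used in the sort, averaged 10.85 ± 0.35 in the Sox2cKO arrays and 11.31 ± 0.20 in the CTRL arrays (SD, n = 3 each). Itga6, the other positive marker, averaged 12.26 ± 0.19 in the Sox2cKO arrays and 12.17 ± 0.07 in the CTRL arrays.

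Replicate spread set what could be seen. The median SD within a group was 0.23 for the 41 genes and 0.19 for all genes, and the SE of a difference ran between 0.11 and 0.28. With 3 arrays against 3, an exact permutation test of a single gene cannot go below p = 0.1, two-sided.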

How the data were processed

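The authors deposited 1 table with a log2 value per probe set and array, the scale read from its range of 2.65 to 14.44. Per the submitters' processing notes R 2.14.0 was used, and the background correction, summarising method and normalization are not given in the sources used here. Per the labels' protocols 100 ng of total RNA was amplified with a 3′ kit, so a value reads the transcript's 3′ end. Of 45101 probe sets, 64 were controls, 34945 had 1 symbol, 932 several and 9160 none in the platform annotation.

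Probe sets entered the fit if 3 or more of the 6 arrays were above their own 40th percentile (4.90 to 4.94), and the one of highest mean stood for its gene. The 13222 genes were fitted with limma 3.58.1 (lmFit and eBayes, R 4.3.3), with Benjamini-Hochberg adjustment over all of them and a threshold of 0.05, after the fit was tested on simulated data. Deviations of same-numbered arrays from their group means correlated across genes at 0.288, 0.206 and 0.211, each above 0.1, and other pairings at -0.333 to 0.0636. Deviations in a group of 3 sum to 0, so some pairings must lie above 0 and others below. This check therefore cannot establish pairing, and the replicate numbers were read as pairs by choice. The labels do not say what they mark. Arrays correlated at 0.966 to 0.990, with 0 identical pairs.

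Values in every array are given for Sox2, for genes with groups apart, for the 8 genes of smallest unadjusted p and for up to 2 such genes of each complex. Of the lists, up to 3 genes of smallest p are named. The members and lists were chosen with earlier results of these data known. The list genes Ccnb1, Fbn1 and Awat1 had no probe set of 1 symbol and were not analysed here. The number of arrays limits the precision.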

Additional observations from a re-analysis of the deposited data

How the results depend on the processing

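In 14 alternatives (quantile normalization, no filter, the mean of all probe sets, 16 added on the linear scale, a trended variance, the replicate block, the sex-linked pattern, each array left out, both arrays numbered 2 left out), 20 of the 41 genes kept their direction and 21 turned at least once, and the cause was not tested. The genes past the threshold numbered 1 among all genes with the sex-linked pattern as covariate and 0 to 5 with 1 array left out. In this balanced design the trended variance and the replicate block, which pairs same-numbered arrays, cannot change a difference. The 37 genes lower and the median of -0.18 were thus fixed in advance under both, and no gene could turn. All 41 genes passed the filter in all 6 arrays, and dropping it left their differences unchanged. That alternative therefore adds no further reading of their direction. The block left 0 of the 41 genes past the threshold, with a lowest adjusted p of 0.884 among them in limma. At an unadjusted p under 0.05 it passed 4 of the 41 genes and 656 of all genes, against 4 and 354 without it. With 1 array left out, that count of the 41 genes ran from 2 to 13 and that of all genes from 200 to 637. Without both arrays numbered 2 the counts were 2 and 401. With the sex-linked pattern the difference was -0.31 for Sgol2a, -0.24 for Oip5 and -0.40 for Cenph. Genes with groups apart numbered 8 in the main fit, beside 5.85% of all genes. Under quantile normalization they numbered 6, beside 6.1%, and with the mean of all probe sets 9, beside 6.32%. With 1 array left out they numbered 8 to 24, and the 24, without Sox2cKO replicate 3, stood beside 16.9% of all genes. Without CTRL replicate 1 there were 12, beside 18%, without Sox2cKO replicate 2 there were 9, beside 20.1%, and without both arrays numbered 2 there were 11, beside 28.2%. The other arrays left out gave 8 or 9, beside 10.8% to 13.6%. Leaving arrays out cannot make separated groups overlap, so none of these leave-out counts could fall below 8. The median was -0.29 without Sox2cKO replicate 3 and -0.02 without both arrays numbered 2. With the sex-linked pattern these turned: Bub1b 0.011, Bub3 0.084, Cenpb -0.105, Cenpc1 -0.109, Dsn1 -0.021, Mis12 0.011, Nsl1 0.137, Ska2 0.093 and Spc25 0.001. The mean of all probe sets turned Cenpo to 0.073 and Zwint to 0.008. Without both arrays numbered 2 these turned: Cenpm 0.009, Cenpn 0.007, Cenpo 0.004, Cenpp 0.021, Cenpq 0.221, Mis18a 0.067, Nsl1 0.009, Ska1 0.204, Spc24 0.077, Spc25 0.121, Zwilch 0.028 and Zwint 0.045. With 1 array left out the range crossed 0 for Bub3 (-0.214 to 0.016), Cenpp (-0.218 to 0.016), Cenpq (-0.24 to 0.2), Dsn1 (-0.005 to 0.057), Mad1l1 (-0.198 to 0.095), Mis18a (-0.284 to 0.008), Nsl1 (-0.337 to 0.02), Pmf1 (-0.121 to 0.232), Ska1 (-0.2 to 0.111), Spc25 (-0.286 to 0.095), Zwilch (-0.204 to 0.024) and Zwint (-0.098 to 0.135). The groups apart were not counted under the block, the covariate or the trended variance.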

Other observations

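Control probe sets on the same arrays varied. The median log2 value of the 12 poly-A spike-in probe sets was 8.62, 7.73 and 8.47 in the Sox2cKO arrays, against 6.49, 9.54 and 7.34 in the CTRL arrays. It was highest in CTRL replicate 2, where the kinetochore genes also had their highest median. The hybridisation spike-ins were highest there too. BioB read 9.82, against 8.34 to 8.93 in the other arrays, and Cre 13.48, against 12.59 to 13.16. The median of the 3 probe sets for 18S rRNA was 10.58, 11.60 and 12.61 in the Sox2cKO arrays, against 11.60, 11.10 and 11.88 in the CTRL arrays. Their part in the values of the centromere and kinetochore genes was not tested.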
